A study of Homo sapiens with 2 samples.

Results

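The AP-1 and small MAF transcription factors were compared between 1 array of U251 cells given 5 µM G-TPP for 6 h and 1 array of U251 cells given DMSO. U251 is an established human glioblastoma line, DMSO is the solvent, and G-TPP is the Gamitrinib in which an Hsp90 inhibitor is carried into mitochondria by triphenylphosphonium. The family was defined by 10 gene symbols: FOS, FOSB, FOSL1, FOSL2, JUN, JUNB, JUND, MAFF, MAFG and MAFK. Probe sets whose single annotated symbol is one of these gave 9 genes in 11 probe sets, of 18417 genes named on the array. MAFK has no such probe set in the annotation used and was not analysed here.

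AP-1 is a dimer of leucine-zipper proteins, usually a JUN protein with a FOS protein or with an ATF protein such as ATF2 or ATF3. JUN proteins can pair with each other, whereas FOS proteins need a partner. Several members are immediate early genes, which are transcribed within minutes of a stimulus through MAP kinases. The small MAF proteins have a leucine zipper but no activation domain of their own, and they act by pairing with NFE2L2 (NRF2), its relatives, or the BACH repressors at antioxidant response elements.

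Promoter sequence is shown for the members with the highest differences, JUN and MAFG, and for the JUN paralogs JUNB and JUND, whose differences were smaller. Each run is the 250 bases before the start used in the RefSeq promoter table, GRCh38.p14, and runs 5′ to 3′ on the strand of the gene. For JUN, JUNB and JUND that start is the 5′ edge of the annotated gene. For MAFG it lies inside the annotated gene, which reaches to 81931244 on the minus strand, so the bases before the outermost MAFG start were not scanned. Capitals mark TGACATCA, TGACGTCA, TGACG and TGACNNNGC on either strand.
JUN, chr1:58784048-58784297, minus strand: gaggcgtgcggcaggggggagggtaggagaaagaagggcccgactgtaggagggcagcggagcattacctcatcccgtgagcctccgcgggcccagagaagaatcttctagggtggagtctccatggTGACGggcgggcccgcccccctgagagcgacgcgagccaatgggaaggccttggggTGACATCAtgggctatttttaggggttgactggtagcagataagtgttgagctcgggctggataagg
MAFG, chr17:81927736-81927985, minus strand: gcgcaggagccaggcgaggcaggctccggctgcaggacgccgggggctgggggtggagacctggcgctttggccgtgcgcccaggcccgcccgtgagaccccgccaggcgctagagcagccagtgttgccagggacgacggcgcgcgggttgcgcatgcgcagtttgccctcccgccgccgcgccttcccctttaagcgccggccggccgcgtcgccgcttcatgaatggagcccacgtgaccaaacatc
JUNB, chr19:12791236-12791485, plus strand: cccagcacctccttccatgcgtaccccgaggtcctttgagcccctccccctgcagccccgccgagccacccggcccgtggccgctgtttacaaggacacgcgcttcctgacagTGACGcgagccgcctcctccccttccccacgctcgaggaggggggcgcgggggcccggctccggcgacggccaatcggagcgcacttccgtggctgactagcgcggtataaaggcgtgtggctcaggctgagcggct
JUND, chr19:18281623-18281872, minus strand: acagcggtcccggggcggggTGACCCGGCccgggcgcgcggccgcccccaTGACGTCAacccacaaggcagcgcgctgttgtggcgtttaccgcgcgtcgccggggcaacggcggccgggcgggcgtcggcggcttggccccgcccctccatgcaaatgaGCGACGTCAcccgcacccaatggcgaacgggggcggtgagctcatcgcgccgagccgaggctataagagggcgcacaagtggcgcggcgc

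The JUN run holds TGACATCA at positions -67 to -60 from the start, a variant of the cyclic AMP response element that JUN and ATF2 dimers are known to bind in this promoter. The same 8 letters occurred in 2.37% of 35116 promoter windows of this length, and in 1 of the 9 windows found for the members, that of JUN. The full element TGACGTCA was in 1.65% of all windows and in the JUND and MAFF promoters. Its core TGACG, which lies inside the full element, was in 21.2% of all windows and in the promoters of JUN, JUNB, JUND, FOS, FOSB, FOSL2 and MAFF. TGACNNNGC, the antioxidant response element, was in 10.9% of all windows and in JUND and MAFF. TGANTCA, the classical AP-1 site, TGATGNAA, the element bound by C/EBP and ATF dimers, and the CArG box of serum response factor were in 6.57%, 3.14% and 1.16% of all windows. None of those 3 was found in the 9 windows of members. Bases farther than 250 from a start were not scanned, so this says nothing of elements farther upstream, in FOS or any other member. The MAFG run, at its internal start, held none of these motifs, which says nothing of the outermost start. Windows were found for 8 of the 10 symbols, MAFF having 2, and a match describes letters and not binding.

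The arrays had median deposited intensities of 215.5 with G-TPP and 224.8 with DMSO over 33297 probe sets. Of 11 astroglial and glioma markers, 8 were in both arrays over the floor set by olfactory receptor genes (an intensity of 178.2 with G-TPP and 174.1 with DMSO), VIM and CD44 among them. SOX2 and SOX9, of the same list, were over the floor and lower with G-TPP: SOX2 had 1629 with G-TPP and 4434 with DMSO (log2 difference -1.44), and SOX9 had 466.7 with G-TPP and 921.9 with DMSO (-0.98). Their part in the members' values was not tested. GFAP was near that floor at 231.5 with G-TPP and 245.2 with DMSO, and S100B, AQP4 and ALDH1L1 were not over it. Of markers of other cell types, those over the floor in both arrays were CD68 and TYROBP of 5 immune genes, CDH5 and CLDN5 of 5 endothelial genes, RBFOX3 and SNAP25 of 4 neuronal genes, KRT8 and KRT18 of 4 epithelial genes and MBP of 2 oligodendrocyte genes. Of the same lists, PTPRC, PECAM1 and EPCAM were not over it in either array. KRT8 was well over it, at 1809 with G-TPP and 2167 with DMSO. With 1 array per group there is no replicate check, and values are given without an error or a test. Intensities depend on the probes, so levels are not compared between genes. A probe set was kept if its brighter array reached the median over all probe sets, an intensity of 239.2, which kept 8 of the 9 genes.

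With G-TPP, JUN and MAFG reached 2-fold or more above DMSO, and no member was 2-fold or more below it. These are 2 of 8 kept members, where 2.8% of the 11091 kept genes were at least 2-fold higher and 0.55% at least 2-fold lower. The median log2 difference, G-TPP minus DMSO, was 0.28 over the 8 kept members and -0.04 over all kept genes. Of the 8, 6 were above 0 and 2 below, JUNB and FOSL2; of all kept genes 4879 were above 0 and 6195 below. The filter kept MAFF, which was above 0, through its G-TPP array alone, and left out FOSB, which was below 0. Over all 9 measured genes, FOSB included, the median was 0.21. In bulk RNA, fewer cells with a transcript and less of it per cell cannot be told apart.

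**Figure D1:**
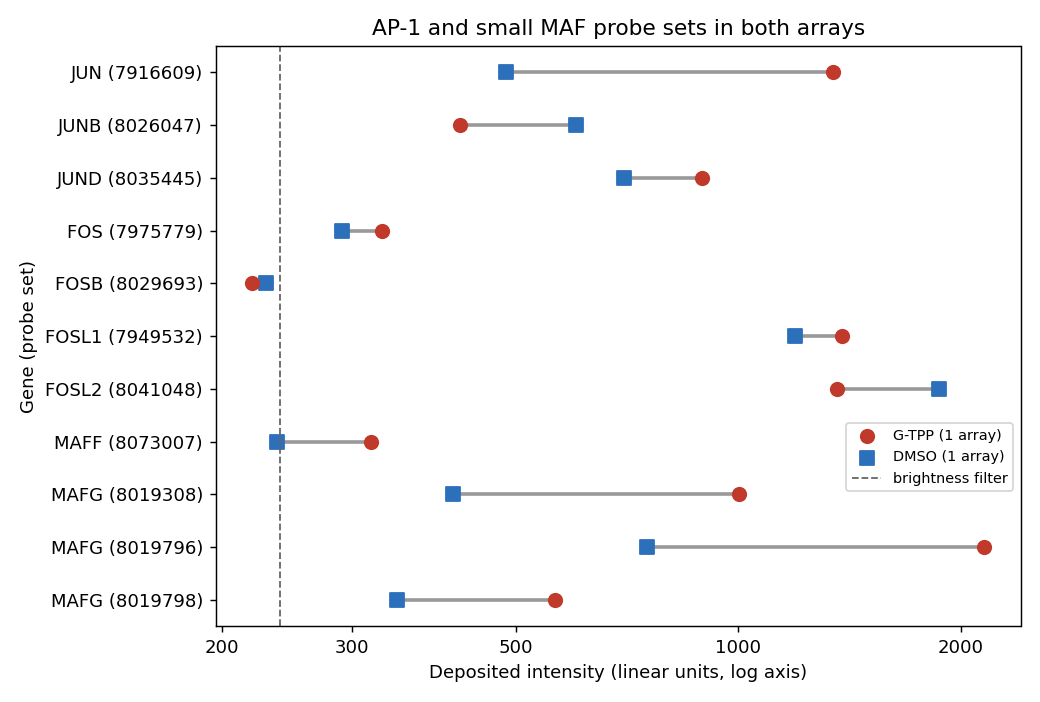
Deposited intensity (log axis) of the 11 probe sets of the 9 members, with G-TPP as red circles and DMSO as blue squares, 1 array each; the dashed line is the brightness filter at 239.2. JUN and the 3 MAFG probe sets show the widest gaps with G-TPP on the right, and JUNB and FOSL2 have G-TPP on the left.

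The JUN family pointed in different directions. JUN (probe set 7916609), whose protein c-Jun is activated by the JNK kinases, had an intensity of 1342 with G-TPP and 484.2 with DMSO. It was 2.77-fold higher, a log2 difference of 1.47, and ranked 119 from the top among 11091 kept genes. JUN lies on chromosome 1 at 58780791 to 58784047 of GRCh38.p14, and it is a gene whose protein binds its own promoter.

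JUNB, which in many settings restrains JUN-driven transcription, was the member with the lowest difference. Its intensity was 419.5 with G-TPP and 603.0 with DMSO, 1.44-fold lower (log2 difference -0.52). It ranked 475 from the bottom, so 4.28% of kept genes had a difference as low. JUND, the member that is broadly expressed in resting cells, had 891.4 with G-TPP and 699.0 with DMSO, 1.28-fold higher (log2 difference 0.35), and 14.9% of kept genes had a difference as high. The gap between JUN and JUNB in log2 difference was 1.99, and that between JUN and JUND was 1.12. The log2 differences of the 3 genes thus ran from -0.52 to 1.47, the widest span of the 3 subfamilies. JUNB and JUND both lie on chromosome 19 of GRCh38.p14, at 12791486 to 12793315 and 18279694 to 18281622.

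The FOS family lay closer to equality at 6 h, and none of its genes reached 1.5-fold in either direction. Earlier times were not measured. Over all kept genes 7.37% were at least 1.5-fold higher and 3.23% at least 1.5-fold lower. FOS, the prototype of the immediate early genes, had an intensity of 329.4 with G-TPP and 290.5 with DMSO, a log2 difference of 0.18. FOSL1 (FRA-1), a FOS relative linked to invasion and growth signalling in tumours, had 1383 with G-TPP and 1192 with DMSO, a log2 difference of 0.21. Both were above 0, but 25.4% of kept genes had a difference as high as that of FOS and 22.9% as high as that of FOSL1.

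FOSL2 (FRA-2) went the other way from its relative FOSL1. It had 1360 with G-TPP and 1866 with DMSO, 1.37-fold lower (log2 difference -0.46), and 6.08% of kept genes were as low. FOSB, another immediate early member, had 219.7 with G-TPP and 229.7 with DMSO, under the filter in both arrays. Its log2 difference was -0.06. Both of its values were over the olfactory receptor floor, so it was dim but not at the floor. JUN thus differed by 1.29 in log2 difference from FOS, its classical partner.

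Of the small MAF genes, both that could be measured were higher with G-TPP. MAFG, on chromosome 17 at 81918270 to 81931244, has 3 probe sets, all with G-TPP above DMSO. The one with the highest mean intensity (8019796) had 2149.6 with G-TPP and 750.9 with DMSO, 2.86-fold higher, a log2 difference of 1.52 that ranked 109 from the top. Probe set 8019308 had 1002 with G-TPP and 410.6 with DMSO, 2.44-fold higher. Probe set 8019798 had 564.7 with G-TPP and 345.5 with DMSO, 1.63-fold higher and short of 2-fold. The 3 values were alike in direction and not in size, and the annotation lists shared transcript accessions for them, so they are not independent measures of MAFG.

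MAFF, the small MAF that is induced by stress in many cell types, had 317.8 with G-TPP and 237.3 with DMSO. It was 1.34-fold higher (log2 difference 0.42), and 11.9% of kept genes had a difference as high. Its DMSO value was under the filter, so it was kept through the G-TPP array.

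**Figure D2:**
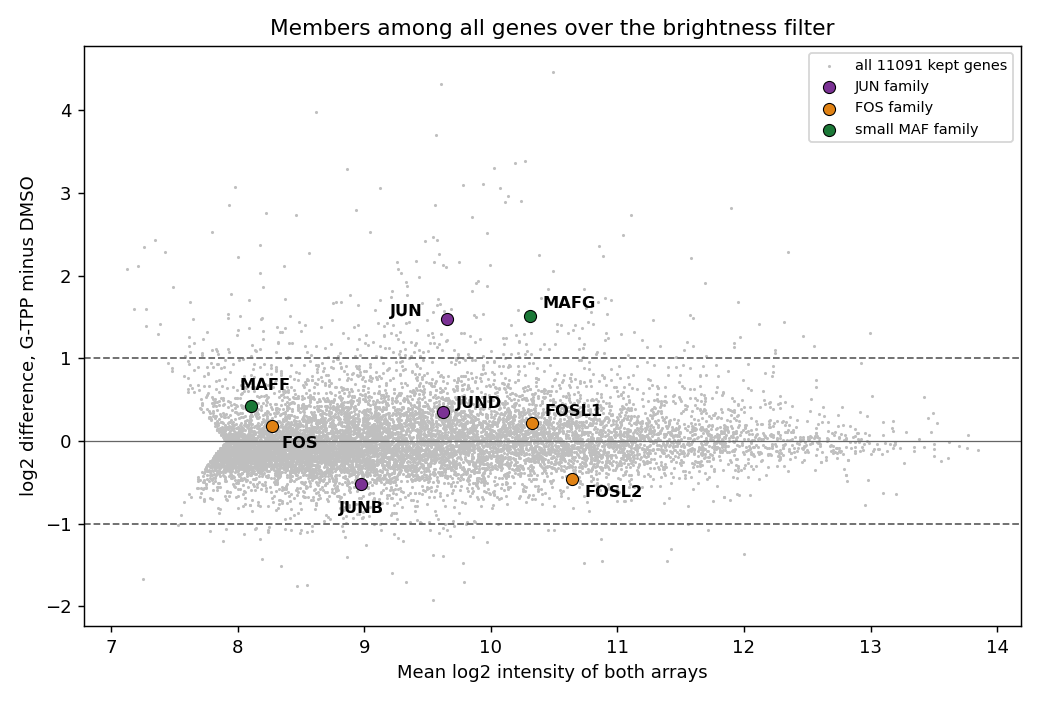
log2 difference (G-TPP minus DMSO) against the mean log2 intensity of both arrays for all 11091 kept genes in grey, with the 8 kept members coloured by subfamily and dashed lines at 2-fold. JUN and MAFG lie over the upper line at 1.47 and 1.52, and the other 6 members lie between -0.52 and 0.42.

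A scale for the noise within these arrays comes from genes and probe sets that should give like values. The log2 differences of 342 olfactory receptor genes, mostly silent outside the nose, had a standard deviation of 0.19. Where a gene had a pair of kept probe sets, as 328 did, the SD of the difference of a single probe set came to 0.17. The differences of JUN and of the MAFG probe set used were far outside both. The pairs were not checked for shared probes, and the olfactory receptor genes lie mostly under the floor. Both SDs may therefore be too small for brighter genes. The 3 MAFG probe sets themselves ran from 0.71 to 1.52, a range wider than either SD. The differences of JUNB (-0.52), FOSL2 (-0.46), MAFF (0.42) and JUND (0.35) were smaller. Those of FOS and FOSL1 were of the same size as this scatter. Over all kept genes the log2 differences had an SD of 0.43, and the differences of JUND, MAFF, FOS and FOSL1 were smaller than that. None of these guides contains the spread between cultures, which was not measured.

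By the likeness in both arrays, the genes nearest to JUN were FYN, a Src-family tyrosine kinase gene, and CALCOCO2, which encodes the autophagy receptor NDP52. FYN lay at a distance of 0.01 on the log2 scale, with 1353 for G-TPP and 483.9 for DMSO, and CALCOCO2 at 0.08. Nearest to MAFG were HSPB8, a small heat shock protein gene, at 0.03 (2114 with G-TPP, 754.8 with DMSO), and PNPLA8, a phospholipase gene, at 0.14. Likeness over 2 arrays rests on a single difference per gene.

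Genes that pair with the members were counted next. Of 8 ATF and other leucine-zipper partners of AP-1, all were kept, 6 were above 0 and 1 was at least 2-fold higher; their median log2 difference was 0.25. That gene was ATF3, a stress-induced partner of JUN, with 406.3 for G-TPP and 144.9 for DMSO. Its DMSO value was under the olfactory receptor floor, and against that floor it was at least 2.33-fold higher. ATF3 was thus kept through its G-TPP array alone, so the filter favoured a higher value here. CREB5, a relative of ATF2, had 684.6 with G-TPP and 413.9 with DMSO, 1.65-fold higher. ATF2, the partner of JUN at the promoter element shown above, had 3022 with G-TPP and 2165 with DMSO (1.40-fold), and JDP2, a repressor of AP-1, was 1.35-fold higher.

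No partner of the small MAF proteins reached 2-fold. Of 6 genes 4 were kept, with a median log2 difference of 0.71, 3 above 0 and 1 below. NFE2L2, which encodes NRF2, had 3806 with G-TPP and 2180.0 with DMSO, 1.75-fold higher. BACH1, the repressor that competes with NRF2 for small MAF, had 515.2 with G-TPP and 306.6 with DMSO, 1.68-fold higher. NFE2L1, an activator of proteasome genes, was 1.60-fold higher, while NFE2L3 had a log2 difference of -0.29. NFE2 and BACH2, both under the filter, had log2 differences of -0.14 and 0.39. The DMSO value of BACH2 was under the floor, and against that floor it was at least 1.13-fold higher. In the large MAF list, whose proteins carry an activation domain, 2 of the 3 named genes were kept. NRL had a log2 difference of -0.29 and MAFA one of -0.01.

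Genes with antioxidant response elements, where small MAF dimers bind, held the highest values of the related lists. All 10 kept genes of this list were above 0, with a median log2 difference of 1.14, and 6 were at least 2-fold higher. The haem oxygenase gene HMOX1 had 3988 with G-TPP and 380.4 with DMSO, 10.5-fold higher. The cystine transporter gene SLC7A11, which also answers to ATF4, had 6595 with G-TPP and 1418 with DMSO, 4.65-fold higher. The sulfiredoxin gene SRXN1 and GCLC, which encodes the catalytic subunit of an enzyme of glutathione synthesis, were each 2.65-fold higher. NQO1, a standard NRF2 target, had a log2 difference of 0.29.

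Textbook AP-1 target genes did not share a direction. Of 24 genes asked for, 14 were kept, 5 above 0 and 9 below, with a median log2 difference of -0.22. The angiogenic factor gene VEGFA, which has many other regulators, was the 1 gene at 2-fold, with 3021 for G-TPP and 1224 for DMSO (2.47-fold higher). HBEGF, an EGF receptor ligand, had 460.3 with G-TPP and 313.2 with DMSO (1.47-fold), and PLAU, the urokinase gene, had a log2 difference of 0.48. TIMP1, an inhibitor of matrix proteases, had 2310 with G-TPP and 3271 with DMSO, 1.42-fold lower. The collagenase and stromelysin genes MMP1, MMP3, MMP10 and MMP13 were under the floor in both arrays, so they carry no direction.

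**Figure D3:**
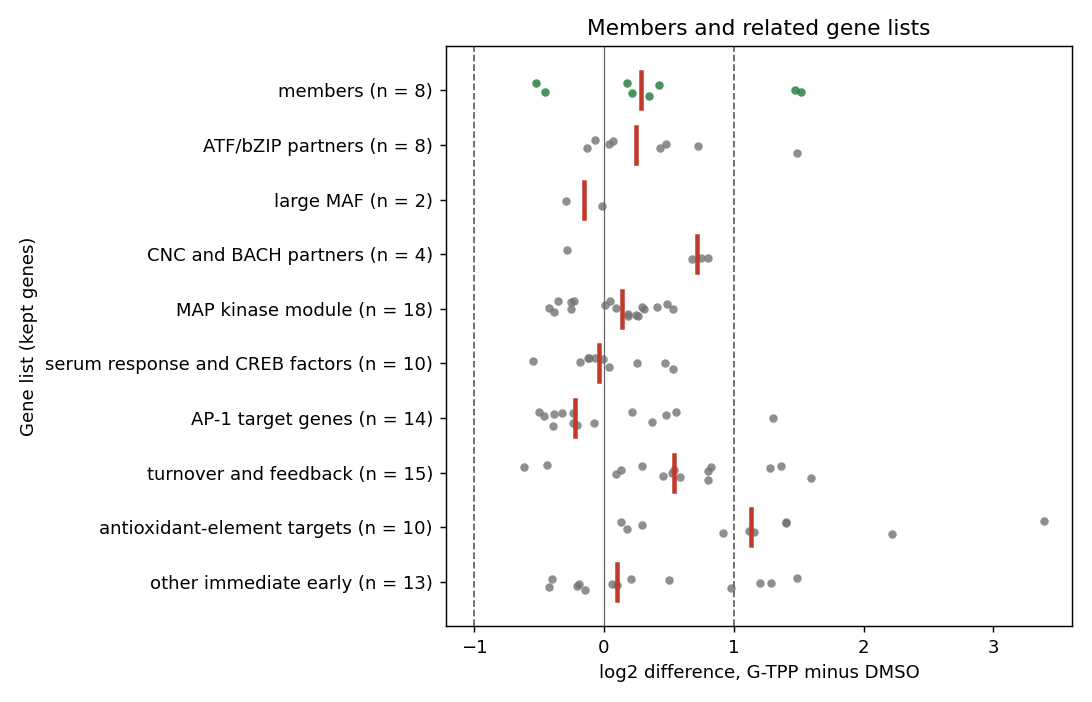
log2 difference (G-TPP minus DMSO) of each kept gene in the members and in 9 related lists, with the median as a red bar and dashed lines at 2-fold; vertical scatter within a row has no meaning. The antioxidant-element targets have the highest median, 1.14, and the AP-1 target genes the lowest, -0.22.

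The kinases above AP-1 differed little at the transcript level. Of 18 kept genes of the JNK, ERK and p38 modules, 12 were above 0 and none reached 2-fold, with a median log2 difference of 0.14 and a range from -0.42 to 0.53. MAP3K20 (ZAK), a kinase that senses ribosome stress, had 898.9 with G-TPP and 621.1 with DMSO, 1.45-fold higher. MAP3K1, an activator of the JNK branch, was 1.40-fold higher, and MAP3K11 was 1.34-fold lower. The JNK gene MAPK8 was 1.24-fold higher. Kinase activity was not measured.

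Among factors that bind FOS and JUN promoters, 10 genes were kept, 4 above 0 and none at 2-fold; the median of their log2 differences was -0.04. SRF, the serum response factor that drives FOS, had 1181 with G-TPP and 1729 with DMSO, 1.46-fold lower. MEF2D and MEF2A, which bind the JUN promoter, were 1.45-fold and 1.39-fold higher.

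Most kept genes of turnover and feedback on AP-1 had higher values with G-TPP. Of 15 kept genes, 13 were above 0 and 3 were at least 2-fold higher, with a median log2 difference of 0.54. FBXW7, DUSP6, DUSP10 and DET1 were under the filter of 239.2 with DMSO. They were kept through the G-TPP array alone, so the filter favoured higher values in these counts and the median. The median is the value of DET1, whose dimmer probe set, under the filter, had -0.16. DUSP1, a phosphatase of JNK and p38, had 1430.2 with G-TPP and 472.8 with DMSO, 3.02-fold higher. DUSP6, a phosphatase of ERK, had 532.8 with G-TPP and 207.3 with DMSO, 2.57-fold higher. TRIB1, a pseudokinase that works with the ubiquitin ligase COP1, had 948.0 with G-TPP and 390.9 with DMSO, 2.43-fold higher. FBXW7, part of a ubiquitin ligase that targets c-Jun, had 289.1 with G-TPP and 163.1 with DMSO; it was at least 1.66-fold higher, since its DMSO value was under the floor. ZFP36L2, a decay factor of AU-rich transcripts, was 1.53-fold lower.

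Other immediate early genes, a list that also names FOSB, were split at 6 h, the only time measured. Of 13 kept genes 8 were above 0, with a median log2 difference of 0.10. The intensities of 3 differed by 2-fold or more, and 2 of these remained at least 2-fold higher when the floor was used. They were ATF3, counted above, and CCN2, a matricellular gene with 4547 for G-TPP and 1977 for DMSO (2.30-fold). The third, NR4A2, was under the floor with DMSO, and against the floor it was at least 1.48-fold higher. KLF4, also under the floor with DMSO, was at least 1.92-fold higher. ATF3, NR4A2 and KLF4 were thus under the filter of 239.2 with DMSO. They were kept through the G-TPP array alone, so the filter favoured higher values in the counts and median of this list. With the filter on the mean of both arrays, 2 genes of the list were at least 2-fold higher. EGR1, which like FOS is driven through serum response elements, had 486.1 with G-TPP and 453.1 with DMSO, a log2 difference of 0.10, and IER2 had one of -0.42.

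**Figure D4:**
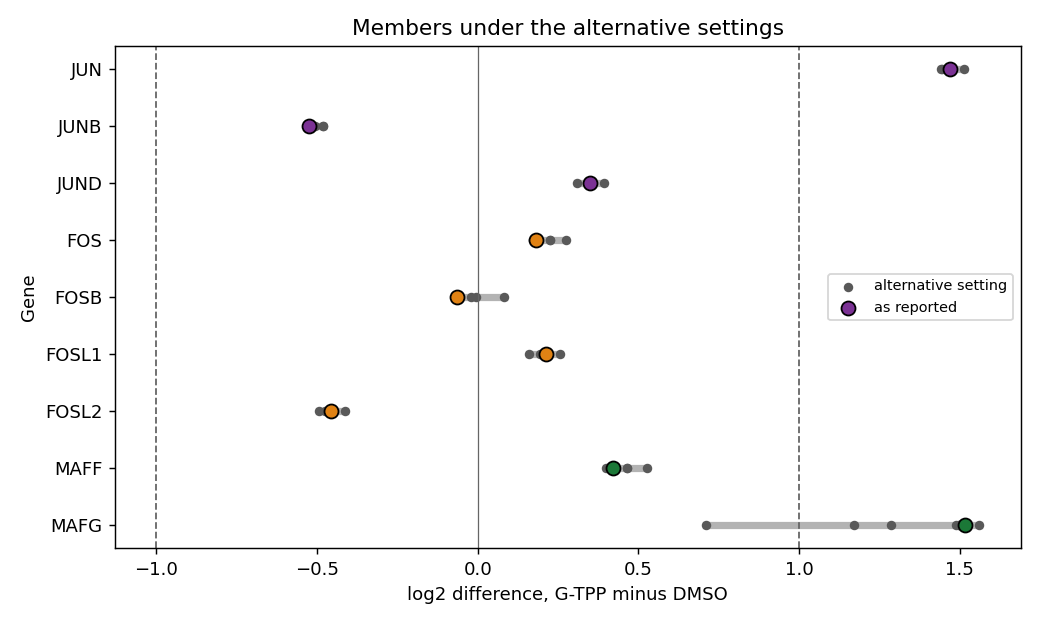
log2 difference (G-TPP minus DMSO) of the 9 members as reported (large circles, coloured by subfamily as JUN purple, FOS orange and small MAF green) and under the alternative settings (small dots, grey bar for their range). JUN stays between 1.44 and 1.51, MAFG runs from 0.71 (its dimmest probe set) to 1.56 (centring on the median), and FOSB is the one gene that crosses 0.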

How the data were processed

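Total RNA of U251 cells was hybridised to Affymetrix arrays, 1 per group, and groups follow the agent in the labels. The authors deposited intensities made with RMA in Affymetrix Expression Console 1.1.2, per the submitters' processing notes. The linear scale shows in the values, from 6.61 to 18995. RMA makes arrays alike in distribution, so a global change in RNA is not visible. For arrays, their number limits the precision. The array scans were not used here.

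Of 33297 probe sets, 19460 had 1 symbol, 1754 several and 12083 were not listed. Gene IDs of 19429 were found in the RefSeq table (GRCh38.p14) and gave the current symbol. No probe set with several symbols was used. For a gene with several probe sets, the one with the highest mean intensity was taken. The log2 difference used no pseudocount, and calls were made at 2-fold. Where the dimmer value fell short of the olfactory receptors' 95th percentile in that array, the fold was taken against that floor as a lower bound.

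All 10 members were to be named, plus up to 4 kept genes per list with the largest absolute difference and genes needed to say what a list is. For each member past 2-fold, the 2 kept genes nearest in Euclidean distance over both log2 values were added. Some genes beyond this rule (NQO1, MAPK8, EGR1, IER2, ZFP36L2, NFE2, BACH2, DUSP10, DET1, the MMP genes) were named after their values were seen. They were named for their role, as examples or to give a limit. The members and the 9 lists were chosen with earlier results of these data known. The procedure was run on simulated data with planted changes larger than the threshold, in bright genes, and with less noise than the scatter given above. That run checks the code and says nothing of how sure the values here are. Alternatives were other thresholds, filters, centrings, quantile normalization, probe set choices and a pseudocount of 16. Software was matplotlib 3.10.9, statsmodels 0.14.6, pandas 2.3.3 and numpy 2.4.6 under Python 3.11.15.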

Additional observations from a re-analysis of the deposited data

How the results depend on the processing

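JUN and MAFG were the members at least 2-fold higher, and none was 2-fold lower, under all alternatives listed in the methods except 2: the 3-fold threshold, where 0 members were higher, and the dimmest probe set of each gene. With that last choice, added after seeing the data, 1 member was at least 2-fold higher, JUN, because MAFG then had a log2 difference of 0.71. MAFG had 1.29 with its second probe set and 1.17 with the mean over its probe sets. The median over kept members lay between 0.21 and 0.35. FOSB changed sign under lowess centring (0.08), a curve fitted to kept genes and so without FOSB. Counts in the related lists moved mostly with the threshold. At 1.5-fold, 2 ATF and leucine-zipper partners, 3 CNC and BACH partners and 7 turnover genes were higher, against 1, 0 and 3 at 2-fold. At the same threshold 1 turnover gene was lower, against 0. Of all kept genes, 7.37% were at least 1.5-fold higher and 3.23% at least 1.5-fold lower. At 3-fold the counts were 0 for the ATF partners, 0 for AP-1 targets (1 at 2-fold), 1 for turnover genes, 2 for antioxidant-element targets (6 at 2-fold) and 0 for other immediate early genes (3 at 2-fold). The share of all kept genes past 3-fold was not counted, so those 3-fold counts stand without it. At the 75th percentile filter, 0 ATF partners and 1 other immediate early gene were at least 2-fold higher. With that filter 4.36% of the 5341 kept genes were at least 2-fold higher, and the median of the ATF partners was 0.60. With no filter the median of the CNC and BACH partners was 0.53. No paired analysis was possible because each group has 1 array, and leaving out a replicate was not possible for the same reason. Dim probe sets, FOSB and MAFF among the members, lie closest to background, which pulls folds towards 1.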
